A study of Mus musculus with 10 samples.

Results

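The Kruppel-like factors (KLFs) examined here are the products of 10 genes, Klf2, Klf3, Klf4, Klf5, Klf6, Klf7, Klf9, Klf10, Klf13 and Klf15, which were taken by gene symbol from the mRNA-seq of adipocyte precursors (APs). They are 10 of the 18384 genes listed in at least 1 of the 6 libraries, and all 10 had enough reads to be tested. The APs came from the subcutaneous white adipose tissue of C57BL/6J mice, were depleted of cells carrying CD45 or CD31 and then enriched for SCA-1, and were grown in DMEM F12 with fetal bovine serum. The 3 control cultures (replicates 1 to 3) received no IL-4, and the 3 IL-4–treated cultures (replicates 4 to 6) were kept with IL-4, a type 2 cytokine, for 4 days. The replicates are described as biological, but the sources used here do not say whether each came from a different animal, nor give the animals' age or the IL-4 concentration. No transgene or deletion is described for either group.

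KLFs are transcription factors with a C-terminal array of zinc fingers that binds GC-rich boxes and CACC boxes in DNA, and they share this DNA-binding region with the SP factors. Their remaining sequence recruits co-repressors such as CtBP and SIN3 or co-activators such as p300, so members bound to similar sites can act in opposite directions. In fat cell differentiation KLF4, KLF5, KLF6, KLF9, KLF13 and KLF15 are known as activators, whereas KLF2, KLF3 and KLF7 hold precursors back. KLF10 is known as a gene that TGF-β switches on early.

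IL-4 stimulation raised the mRNA of 5 of the 10 KLF genes (Klf4, Klf9, Klf10, Klf15 and Klf6), and no member fell. In edgeR's quasi-likelihood test at an adjusted p under 0.05, 19% of the 14009 genes tested were higher and 18.4% were lower, against 5 and 0 of the 10 members. No member was lower at an unadjusted p under 0.05 either, and DESeq2 also called none lower. Klf2 was called lower in 5 of the 15 alternatives of scaling, tool and left-out libraries. Beyond 2-fold, 2 members were higher (Klf4 and Klf9) and none was lower, beside 5.77% and 5.26% of all genes tested. The median log2 fold change was 0.39 over the 10 members and 0.003 over all genes tested. The 10 were chosen with earlier results of these data known, so these counts and medians are descriptions and no test of the family. Of the 4 other KLF genes tested, 0 were higher and 1 was lower, with a median of −0.20. Counts of 5 of the 10 members did not overlap between the groups, which is close to the 50.4% of all genes tested that did not. Klf4 alone accounted for most of the added KLF mRNA, as the FPKM (read numbers scaled for transcript length and library size) show further on.

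Control libraries held between 28526782 and 28674604 expected counts and IL-4 libraries between 28914003 and 29057787, and the 10 most abundant genes took 9.14% to 9.59% and 13.8% to 15.5% of them. IL-4 replicate 6 stood apart, with a median absolute log2 difference of 0.185 and 0.205 from the other IL-4 libraries, which differed from each other by 0.0642. That is nearly as large as the difference of IL-4 replicates 4 and 5 from the controls, at 0.202 to 0.233. The SCA-1 gene Ly6a had a mean of 120.5 FPKM in controls and 244.7 FPKM with IL-4. CD31 transcripts (Pecam1) were low, at 2.38 and 1.84 FPKM. RNA of macrophages was present in spite of the CD45 depletion, and all 16 macrophage markers examined were listed. Ptprc, which encodes CD45, had 18.3 FPKM in controls and 8.22 FPKM with IL-4. The summed FPKM of the 16 markers ranged from 4599 to 6051 in controls and from 1763 to 2452 with IL-4, and 15 of the 16 fell. That count was 12 without control replicate 3 or without IL-4 replicate 4. Lyz2 alone had means of 2739 FPKM in controls and 776.4 FPKM with IL-4. The falls were uneven, with log2 fold changes from −0.24 for Adgre1 and −0.27 for Itgam to −8.65 for Cx3cr1. Cd68, the exception, had 247.4 FPKM in controls and 287.9 FPKM with IL-4 (log2 fold change 0.38, edgeR adjusted p = 0.0572). All 6 markers of mural cells fell as well, with sums of 790.6 to 830.7 FPKM in controls and 245.8 to 283.4 FPKM with IL-4. Nearly all of these sums came from Acta2, with means of 796.2 FPKM in controls and 259.6 FPKM with IL-4. The other mural markers were low in both groups, so the fall of the sums is essentially that of Acta2. Of 8 endothelial markers 2 rose and 4 fell (2 without control replicate 1, control replicate 3 or IL-4 replicate 4), with sums of 16.4 to 17.1 FPKM in controls and 16.5 to 18.5 FPKM with IL-4. These sums hide opposite changes. Vwf rose from 0.80 to 5.97 FPKM and Tek from 2.92 to 4.56 FPKM, whereas Cdh5, for one, fell from 3.38 to 0.99 FPKM. Markers of lymphocytes and of mature adipocytes summed to at most 0.41 FPKM in any library, and Cd3e, Cd3d, Lep, Retn and Cidec were at 0. Of 10 AP markers, 6 rose and 2 fell. Fewer cells of a type and less RNA per cell cannot be told apart in such libraries, and the part of macrophage or mural RNA in the KLF results was not tested.

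Klf4 (chr4:55527137-55532475 on the minus strand of GRCm38.p6) encodes one of the reprogramming factors of pluripotent cells, which also acts with STAT6 downstream of IL-4 in macrophages. Its expected counts were 1407, 1397 and 1358 in control replicates 1 to 3 and 6142, 6134 and 6946 in IL-4 replicates 4 to 6. The control libraries lay within a narrow band, and each IL-4 library was far above all of them. After scaling, the mean rose from 1317 ± 37.6 (SD, n = 3) to 6764 ± 353 (SD, n = 3) normalized counts. This was a 5.13-fold rise, with a 95% interval of 4.63 to 5.69 (log2 fold change 2.36, SE 0.06, edgeR adjusted p = 1.64e-07). Only 1.77% of the genes tested (248 genes) had a larger log2 fold change than Klf4. Across all alternatives of scaling, tool and left-out library, its log2 fold change stayed between 2.12 and 2.39.

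Klf9 (chr19:23141226-23168129, plus strand) encodes a glucocorticoid-inducible factor that activates Pparg in adipogenesis. Its expected counts were 1927, 2009 and 1664 in controls and 3744, 3688 and 3503 with IL-4. The groups did not overlap, and replicates 3 and 6 were the lowest of their groups. After scaling, controls had 1774 ± 190 and IL-4 cultures 3853 ± 208 normalized counts (SD over 3 cultures). Klf9 was thus 2.17-fold higher, with a 95% interval of 1.89 to 2.5 (log2 fold change 1.12, SE 0.09, edgeR adjusted p = 3.47e-05). The interval reached below 2-fold, and with library totals or FPKM the log2 fold change was 0.92 to 0.95, past the adjusted p of 0.05 but under 2-fold. The intervals of Klf4 and Klf9 did not overlap.

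Smaller rises were seen for 3 other members. Klf10 (chr15:38291464-38300711), the TGF-β-inducible early gene, had 795, 815 and 828 expected counts in controls and 1137, 1119 and 1156 with IL-4. Its replicates were the most alike of all members in both groups, with coefficients of variation of 1.81% and 1.07% after scaling. The 1.56-fold rise had a 95% interval of 1.42 to 1.71 (log2 fold change 0.64, SE 0.06, edgeR adjusted p = 6.95e-05).

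Klf15 (chr6:90461043-90491803, plus strand) encodes a regulator of glucose transporter and amino acid metabolism genes that glucocorticoids induce. Its expected counts were 339, 305 and 313 in controls and 419, 385 and 436 with IL-4, again without overlap. The rise was 1.44-fold, with a 95% interval of 1.26 to 1.65 (log2 fold change 0.53, SE 0.08, edgeR adjusted p = 0.0015). Klf6 (chr13:5861489-5870393, plus strand), whose product represses the preadipocyte gene Dlk1, had 6200, 6369 and 6118 expected counts in controls and 7015, 7097 and 7038 with IL-4. Every IL-4 library was above every control, yet the change was the smallest of the 5, at 1.26-fold with a 95% interval of 1.15 to 1.38 (log2 fold change 0.33, SE 0.06, edgeR adjusted p = 0.00198).

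The call for Klf3 rested on a single library. Klf3 (chr5:64803521-64832901, plus strand) encodes a CtBP-dependent repressor of Cebpa. Its expected counts were 1911, 1895 and 1544 in controls and 2448, 2526 and 1592 with IL-4. IL-4 replicates 4 and 5 were above every control, whereas replicate 6 lay among the controls, 0.69 below the other IL-4 libraries on the log2 scale. Over all libraries the log2 fold change was 0.45 (SE 0.18) and did not pass the test (edgeR adjusted p = 0.0921). Without IL-4 replicate 6 it was 0.66 (edgeR adjusted p = 0.000162), and without control replicate 3 as well it was 0.55 (edgeR adjusted p = 4.61e-08). DESeq2 placed it just past the threshold over all libraries (adjusted p = 0.0478).

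Klf2 (chr8:72319062-72321654, plus strand), a close paralog of Klf4 and a factor that holds precursors undifferentiated, did not rise with it. Its expected counts were 547, 601 and 702 in controls and 438, 453 and 537 with IL-4. Every IL-4 library had fewer counts than every control before scaling, but the groups overlapped after it, at 520.0 to 658.6 against 468.6 to 554.5 normalized counts. The log2 fold change was −0.22 (95% interval −0.47 to 0.03, edgeR adjusted p = 0.154). Klf2 passed the test as lower with library totals (−0.39, edgeR adjusted p = 0.0254), and without IL-4 replicate 6 (−0.29, edgeR adjusted p = 0.0357).

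The other 3 members did not pass the test. Klf13 (chr7:63886351-63938915, minus strand), known as an early activator of Pparg, had 2673, 2947 and 2592 expected counts in controls and 2771, 2656 and 2553 with IL-4. The groups overlapped, and the log2 fold change of 0.11 (95% interval −0.06 to 0.29, edgeR adjusted p = 0.292) changed sign to −0.06 with library totals. Klf7 (chr1:64029448-64122345, minus strand), which impairs adipogenesis, had 133, 137 and 134 counts in controls and 118, 128 and 107 with IL-4 (log2 fold change −0.04, 95% interval −0.31 to 0.23, edgeR adjusted p = 0.821). Klf5 (chr14:99298691-99313412), a C/EBP target that activates Pparg, was the least abundant member, with 87, 61 and 65 counts in controls and 56, 59 and 58 with IL-4. Control replicate 1 was the highest of these and the remaining libraries were close together. The log2 fold change of Klf5 was −0.15, and its 95% interval of −0.55 to 0.26 admits changes of either sign (edgeR adjusted p = 0.555).

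**Figure D1:**
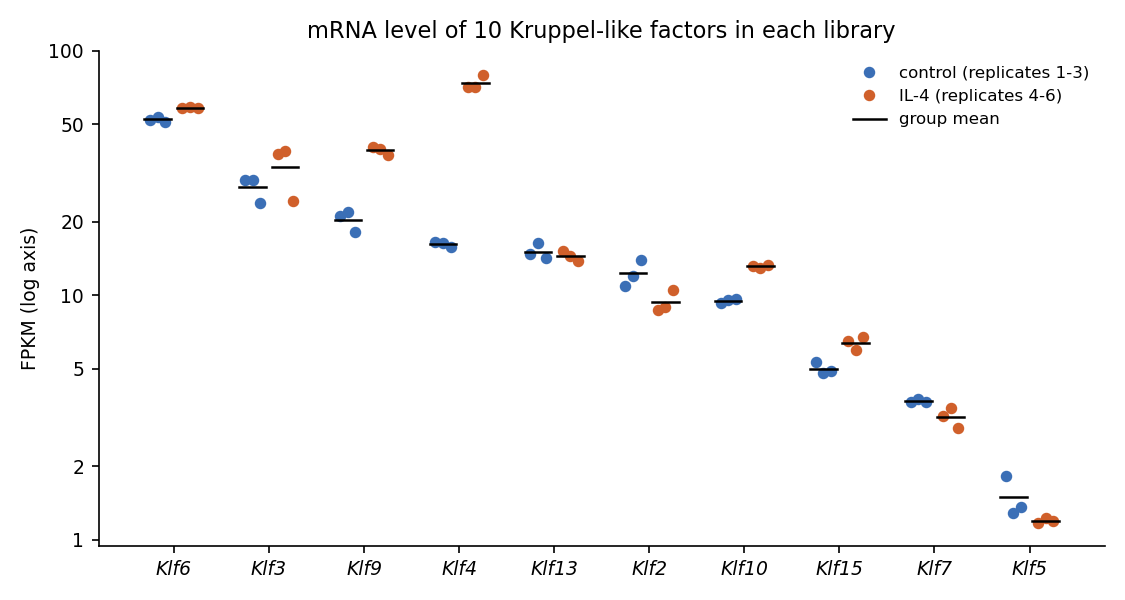
FPKM of the 10 KLF genes on a log axis, with 1 point for each library and a line at each group mean, ordered by the control mean. Klf4 moved from 16.2 to 73.9 FPKM and became the highest of the 10, and IL-4 replicate 6 lies below the other IL-4 libraries for Klf3.

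Levels of different genes were compared as FPKM, which take transcript length into account. In controls Klf6 was highest at 52.4 ± 1.21 FPKM (SD, n = 3), followed by Klf3 (27.8 ± 3.29 FPKM), Klf9 (20.4 ± 2.02 FPKM), Klf4 (16.2 ± 0.335 FPKM) and Klf13 (15.1 ± 1.06 FPKM). Klf4 and Klf13 overlapped between libraries, whereas every other pair of neighbours in the order was separated. Below them came Klf2 (12.3 ± 1.55 FPKM), Klf10 (9.50 ± 0.18 FPKM), Klf15 (5.01 ± 0.282 FPKM), Klf7 (3.69 ± 0.0608 FPKM) and Klf5 (1.49 ± 0.294 FPKM). With IL-4, Klf4 was highest at 73.9 ± 5.14 FPKM, above Klf6 (58.6 ± 0.38 FPKM). Klf9 (39.3 ± 1.49 FPKM) and Klf3 (33.6 ± 8.04 FPKM) overlapped, and Klf10 (13.1 ± 0.197 FPKM) stood above Klf2 (9.39 ± 1.02 FPKM), the reverse of their order in controls. In controls 24.7% of the listed genes had a higher mean FPKM than Klf4, and with IL-4 5.02% did.

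Ratios of FPKM within a library show the same shift free of any scaling between libraries. The Klf4 to Klf6 ratio was 0.315, 0.304 and 0.308 in controls and 1.22, 1.2 and 1.37 with IL-4. For Klf4 and its paralog Klf2 the ratio went from 1.5, 1.36 and 1.13 to 8.19, 7.92 and 7.56. The Klf9 to Klf13 ratio was 1.43, 1.35 and 1.27 in controls and 2.68, 2.75 and 2.72 with IL-4. None of these ratios overlapped between the groups. Each pair set Klf4 or Klf9, the members that rose most, over a member that changed less. The separation therefore follows largely from the changes given above and is no further evidence for them.

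**Figure D2:**
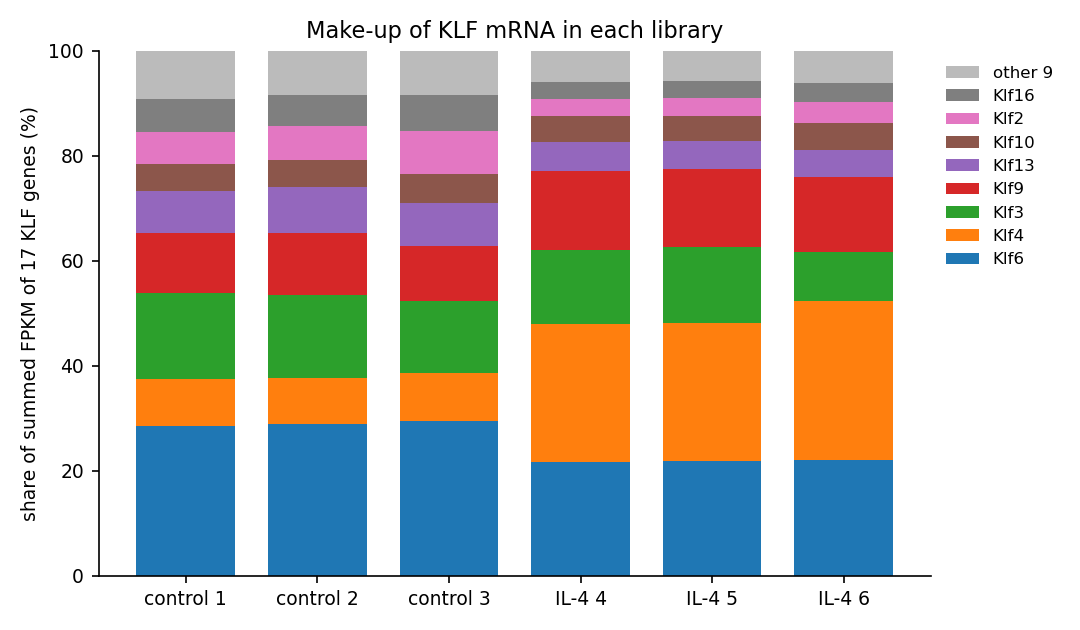
Share of each gene in the summed FPKM of the 17 listed KLF genes, with 1 stacked bar for each library; the grey segment at the top holds the remaining 9 genes. The Klf4 segment grew from at most 9.10% in each control to 26.3% or more in each IL-4 library, and the Klf6 segment shrank from 29.0% to 21.9% on average.

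The summed FPKM of all 17 KLF genes listed in the libraries went from 181.0 ± 6.34 to 267.5 ± 3.29 (SD, n = 3 each). Klf4 made up 8.99%, 8.79% and 9.10% of this sum in controls and 26.3%, 26.3% and 30.3% with IL-4. Without Klf4 the sum was 164.8 ± 6.03 FPKM in controls and 193.6 ± 8.42 FPKM with IL-4. The share of Klf6 was 29.0 ± 0.506% and 21.9 ± 0.211%, although its own FPKM were higher with IL-4. Of the other 9 members, only Klf9 had a larger mean share with IL-4, at 11.3 ± 0.733% and 14.7 ± 0.38%.

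The start regions of the members differ in the boxes that KLF and SP proteins bind. RefSeq promoters of the GRCm38.p6 build were matched for 8 of the 10 members, all but Klf5 and Klf10, and the 250 bases before the start given there were searched on both strands. For Klf15 and Klf7 that start lies inside the gene span printed here, so their windows do too. The GC box was read as GGGCGG or its complement CCGCCC and the CACC box as CACCC or GGGTG, and matches were allowed to overlap each other. A GC box was found in 7 of the 8 members and in 32.7% of all 32851 promoters, and a CACC box in 6 of the 8 and in 52.0% of all. The members' windows were rich in G and C, at 59.2% to 78.4% against a median of 52.4% over all promoters. Sequences are shown for the 4 called members with an entry and for Klf2, the paralog of Klf4 that was not called; they are written 5′ to 3′ on the gene's strand, with GC and CACC boxes in capitals.
Klf4 (chr4:55532476-55532725, minus strand): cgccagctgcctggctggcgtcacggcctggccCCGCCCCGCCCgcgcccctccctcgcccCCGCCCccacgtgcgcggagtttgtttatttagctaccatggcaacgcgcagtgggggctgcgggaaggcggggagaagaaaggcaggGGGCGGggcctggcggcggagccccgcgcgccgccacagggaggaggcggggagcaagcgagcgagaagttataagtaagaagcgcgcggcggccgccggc
Klf9 (chr19:23140976-23141225, plus strand): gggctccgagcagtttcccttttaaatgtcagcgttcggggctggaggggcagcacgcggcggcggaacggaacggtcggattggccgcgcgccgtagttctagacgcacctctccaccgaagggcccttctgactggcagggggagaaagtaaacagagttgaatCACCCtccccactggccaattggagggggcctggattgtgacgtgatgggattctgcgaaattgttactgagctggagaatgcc
Klf15 (chr6:90462326-90462575, plus strand): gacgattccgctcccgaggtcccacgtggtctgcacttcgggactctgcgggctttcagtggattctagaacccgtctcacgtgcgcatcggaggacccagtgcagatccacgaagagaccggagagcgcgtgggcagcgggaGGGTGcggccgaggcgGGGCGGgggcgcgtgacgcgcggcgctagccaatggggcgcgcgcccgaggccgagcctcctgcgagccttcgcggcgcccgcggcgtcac
Klf6 (chr13:5861239-5861488, plus strand): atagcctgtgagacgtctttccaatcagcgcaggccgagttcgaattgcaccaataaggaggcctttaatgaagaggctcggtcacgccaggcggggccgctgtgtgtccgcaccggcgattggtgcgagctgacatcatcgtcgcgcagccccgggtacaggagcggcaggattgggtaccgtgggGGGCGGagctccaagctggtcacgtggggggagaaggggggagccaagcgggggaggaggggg
Klf2 (chr8:72318812-72319061, plus strand): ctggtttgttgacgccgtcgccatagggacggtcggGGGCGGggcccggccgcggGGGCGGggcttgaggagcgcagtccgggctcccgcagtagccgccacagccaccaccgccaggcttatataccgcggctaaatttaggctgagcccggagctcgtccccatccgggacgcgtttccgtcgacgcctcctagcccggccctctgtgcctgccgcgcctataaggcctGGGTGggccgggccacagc

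Klf4 and Klf9, which rose most, differed in these letters. The Klf4 window held 4 GC boxes and no CACC box, and the Klf9 window held 1 CACC box and no GC box. Klf2 had 2 GC boxes and 1 CACC box, Klf15 had 1 of each, and Klf6 had 1 GC box and no CACC box. The E-box CACGTG, a sequence read by clock factors among others, occurred 1 time in Klf4, 1 time in Klf6 and 2 times in Klf15, and in 6.02% of all promoters. Klf9 held 3 CCAAT boxes (CCAAT or ATTGG), Klf6 held 4, Klf13 held 2 and Klf15 held 1, and 33.8% of all promoters had at least 1. The half-site of the cAMP response element (TGACG or CGTCA) occurred 1 time each in Klf4, Klf9, Klf13 and Klf2 and 2 times in Klf15, and in 17.8% of all promoters. The palindrome that STAT6 prefers, TTC and GAA with 4 bases between them, was in none of the 8 windows and in 5.85% of all promoters. With 3 bases between them, the spacing of other STAT proteins, it was found in Klf9 and in 7.02% of all promoters. These matches describe the windows searched and nothing outside them.

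Outside the 10 members the family was at low levels apart from Klf11 and Klf16. Of the 7 other KLF genes listed, 4 were tested, and none was higher. Klf12 (chr14:99866181-100285891, minus strand), which encodes a CtBP-binding repressor, was lower, at 134.2 ± 39.6 normalized counts in controls and 71.0 ± 16.0 with IL-4 (log2 fold change −0.92, SE 0.26, edgeR adjusted p = 0.0241). The call of Klf12 was lost without control replicate 1 (edgeR adjusted p = 0.0749) or control replicate 2 (edgeR adjusted p = 0.0832), and the log2 fold change was −0.70 in the latter case. Klf11, a close relative of Klf10, was at 438.4 ± 34.1 and 519.1 ± 21.7 normalized counts (log2 fold change 0.24, edgeR adjusted p = 0.0514). Klf16 was at 810.9 ± 30.8 and 723.7 ± 44.0 normalized counts (log2 fold change −0.16, edgeR adjusted p = 0.113), and Klf8 stayed below 54 normalized counts in each library (edgeR adjusted p = 0.465). Klf1 was listed at up to 0.30 FPKM and Klf14 and Klf17 at up to 0.01 FPKM, and these 3 were not tested.

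**Figure D3:**
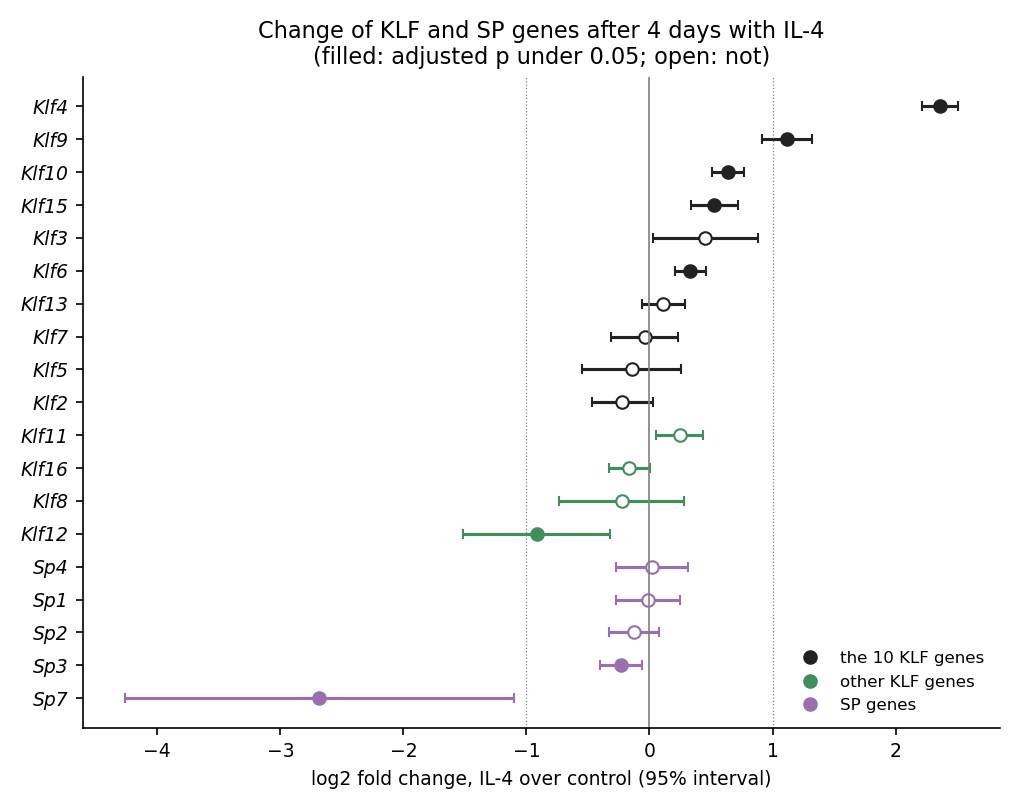
Log2 fold change of IL-4 over control, with 95% intervals, for the 10 KLF genes, the 4 other KLF genes tested and the 5 SP genes tested; filled points have an adjusted p under 0.05 and dotted lines mark 2-fold. Klf4 at 2.36 and Klf9 at 1.12 lie beyond the dotted line on the right, and Klf12 at −0.92 and Sp7 at −2.68 lie farthest to the left with wide intervals.

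The SP factors bind the same GC boxes. Of 9 SP genes listed, 5 were tested, none was higher and 2 were lower. Sp3, the most abundant, was at 33.6 FPKM in controls and 25.4 FPKM with IL-4 (log2 fold change −0.23, SE 0.07, edgeR adjusted p = 0.039), and this call was lost in 6 of the 15 alternatives. Sp7, a factor of bone-forming cells, rested on few reads, at 14.2 ± 6.60 and 2.09 ± 2.07 normalized counts (log2 fold change −2.68, SE 0.68, edgeR adjusted p = 0.0162). Its call was lost without control replicate 1 (edgeR adjusted p = 0.0577) or IL-4 replicate 5 (edgeR adjusted p = 0.0544). Sp1, the founding member, had a log2 fold change of −0.01 (edgeR adjusted p = 0.936), Sp2 of −0.13 (edgeR adjusted p = 0.309) and Sp4 of 0.02 (edgeR adjusted p = 0.927). Sp5, Sp6, Sp8 and Sp9 were at no more than 0.13 FPKM in any library and were not tested.

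Among the proteins with which KLFs work, most transcripts did not pass the test. Of 14 cofactor genes none was higher and 2 were lower, with a median log2 fold change of −0.10. Leaving out control replicate 1, control replicate 2 or IL-4 replicate 5 gave 1 lower, and leaving out IL-4 replicate 6 gave 4. With library totals 6 of the 14 were lower, under which the median of all genes shifted by −0.17. Fhl2, a LIM-domain cofactor, fell from 4538 ± 22.4 to 1749 normalized counts (log2 fold change −1.38, SE 0.07, edgeR adjusted p = 2.46e-06). Ctbp1, the co-repressor used by KLF3 and KLF12, was at 78.5 FPKM in controls and 71.5 FPKM with IL-4 (log2 fold change 0.03, edgeR adjusted p = 0.68). Of 8 genes for turnover of KLF proteins, 2 were higher and 2 were lower. The ubiquitin ligase genes Smurf1 (log2 fold change 0.81, edgeR adjusted p = 0.00052) and Wwp1 (−0.66, edgeR adjusted p = 0.000507) moved in opposite directions. Fbxo32 fell by 0.46 on the log2 scale (edgeR adjusted p = 0.0112), and Vhl was 0.17 higher (edgeR adjusted p = 0.0392). The Vhl call was kept in 3 of the 15 alternatives, and its difference was 0 with FPKM.

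Of 9 genes that lie upstream of Klf2 and Klf4 in other cells, 2 were higher and 2 lower, with a median log2 fold change of 0.02, but the 2 rises were not stable. None was higher with library totals, in both limma fits on FPKM, or without any 1 of control replicates 1, 2 and 3 and IL-4 replicates 4 and 5. Il4ra, the receptor chain for IL-4, was the most abundant at 88.5 FPKM in controls and 89.5 FPKM with IL-4 (log2 fold change 0.19, SE 0.06, edgeR adjusted p = 0.0378). Stat6, the transcription factor below this receptor, was at 40.9 and 37.1 FPKM (log2 fold change 0.03, edgeR adjusted p = 0.717). The MEF2 genes, whose products carry the ERK5 signal to Klf2 and Klf4, were split, with Mef2c (log2 fold change −0.41, edgeR adjusted p = 0.00454) and Mef2a (−0.28, edgeR adjusted p = 0.0167) lower and Mef2d (0.20, edgeR adjusted p = 0.031) higher. Il4ra and Mef2d each kept their call in 7 of the 15 alternatives. Mef2a lost it without control replicate 1 or control replicate 2. Piezo1, a mechanosensitive channel, did not pass the test (log2 fold change −0.21, edgeR adjusted p = 0.333).

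Glucocorticoids induce Klf9 and Klf15, and of 11 other genes of this response that were tested 5 were higher and 3 lower, with a median log2 fold change of 0.40. The list did not move as one. Hsd11b1, the enzyme that regenerates active glucocorticoid, rose from 78.5 ± 5.15 to 2175 normalized counts (log2 fold change 4.79, SE 0.11, edgeR adjusted p = 8.32e-08), and Errfi1, a feedback inhibitor of the EGF receptor, rose by 1.07 (edgeR adjusted p = 8.91e-06). Fkbp5, a chaperone that is a common readout of the receptor, fell by 0.81 on the log2 scale (edgeR adjusted p = 3.98e-05), and Sgk1, a kinase, fell by 1.22 (edgeR adjusted p = 3.23e-06). Mt2 was the most abundant at 303.0 and 353.6 FPKM (edgeR adjusted p = 0.0693), and Ddit4 was 0.41 higher (edgeR adjusted p = 0.0258). The call of Ddit4 was kept in 9 of the 15 alternatives, and was lost among others without control replicate 1, control replicate 2 or IL-4 replicate 5. With library totals the counts were 3 higher and 4 lower.

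Klf9, Klf10 and Klf15 cycle with the circadian clock in many tissues. Of 18 clock genes, 9 were higher and 2 lower, with a median log2 fold change of 0.29, whereas with library totals 6 were higher and 5 lower. The transcription factor gene Hlf went from 99.3 ± 9.88 to 3829 normalized counts (log2 fold change 5.27, SE 0.09, edgeR adjusted p = 5.02e-08). Its antagonist Nfil3 also rose (1.26, edgeR adjusted p = 1.61e-06). The repressor genes Bhlhe40 (1.54, edgeR adjusted p = 6.57e-07) and Bhlhe41 (−1.85, edgeR adjusted p = 3.5e-06) changed in opposite directions. Each library gives a single time of harvest, so phase was not measured.

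TGF-β induces Klf10, which rose. Of 15 other early genes of TGF-β and components of its pathway, 2 were higher and 8 lower, with a median log2 fold change of −0.30, and with library totals 2 were higher and 11 lower. Without control replicate 1, or without IL-4 replicate 5, 5 were lower. Ctgf, a matricellular growth factor, fell from 13330 ± 624 to 4753 normalized counts (log2 fold change −1.49, SE 0.06, edgeR adjusted p = 1.14e-06). The ligand gene Tgfb3 fell by 0.81 (edgeR adjusted p = 2.05e-05), whereas the receptor gene Tgfbr2 was higher by 0.88 (edgeR adjusted p = 0.000127). Several of these genes are also made by mural cells, whose 6 markers fell, and the part of that change was not tested.

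**Figure D4:**
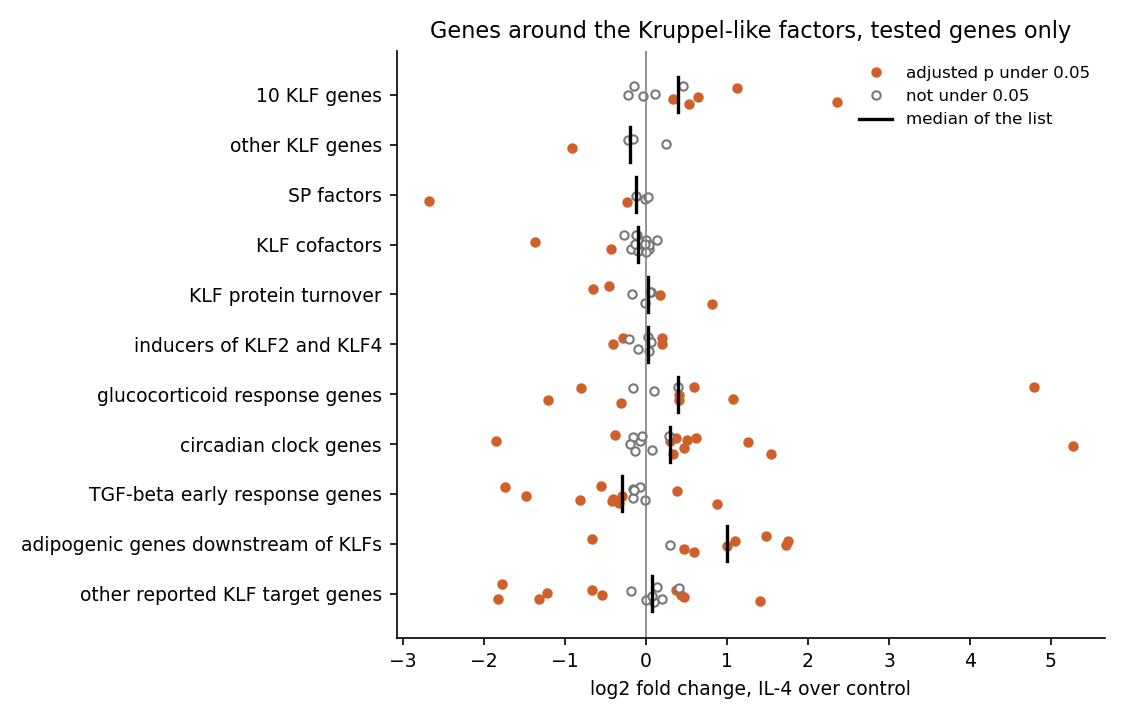
Log2 fold change of each tested gene in 11 lists around the KLFs, with 1 row for each list, filled orange points for an adjusted p under 0.05 and a bar at the list's median. The genes of IL-4–treated macrophages and the cell markers are not plotted. Of the lists plotted, the adipogenic genes have the highest median, 1, and the TGF-β genes the lowest, −0.30.

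Adipogenic genes that KLFs regulate were mostly higher. Of 9 tested, 7 were higher and 1 lower, with a median log2 fold change of 1, and the counts were the same with library totals. The 1 lower gene, Dlk1, lost its call without any 1 of control replicates 1, 2 and 3 and IL-4 replicates 4 and 5. Pparg, the master regulator of fat cells and a target of KLF2, KLF5, KLF9 and KLF15, rose from 275.3 ± 8.71 to 931.4 normalized counts (log2 fold change 1.76, SE 0.10, edgeR adjusted p = 4.82e-06). Lpl, the lipoprotein lipase, rose from 160.3 to 469.4 FPKM (log2 fold change 1.72, edgeR adjusted p = 8.06e-07). The fatty acid transporter gene Cd36 rose by 1.49 (edgeR adjusted p = 1.43e-06), and the lipid carrier gene Fabp4 by 1.10 (edgeR adjusted p = 0.000302). Cebpb, the early adipogenic gene on which KLF4 acts, was at 80.1 FPKM in controls and 87.2 FPKM with IL-4 and did not pass the test (log2 fold change 0.30, SE 0.11, edgeR adjusted p = 0.0767). Some genes of this list are also expressed by macrophages, Cd36 and Lpl among them. The part of macrophage RNA in these rises was not tested.

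Of 17 other genes reported as KLF targets, 4 were higher and 6 lower, with a median log2 fold change of 0.07 that turned to −0.10 with library totals. Among those that fell were the growth factor gene Pdgfb (log2 fold change −1.83, edgeR adjusted p = 5.37e-05), the smooth muscle gene Tagln (−1.32, edgeR adjusted p = 1.26e-05), which KLF4 represses in vascular cells, and the cyclin gene Ccnd1 (−1.23, edgeR adjusted p = 5.31e-06). The 6 markers of mural cells, which make Tagln too, fell in the same libraries, and only Acta2 among them was abundant. The part of mural RNA in these falls was not tested. Acss1, an acetyl-CoA synthetase, rose by 1.41 (edgeR adjusted p = 2.9e-05). Col1a2, a collagen gene and the most abundant of the list, was at 2501 and 2990 FPKM (log2 fold change 0.43, edgeR adjusted p = 0.00495), a call lost in both limma fits on FPKM.

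The genes that KLF4 and STAT6 switch on in IL-4–treated macrophages were all higher, 7 of 7. Chil3, a chitinase-like secreted protein, had 28.2 ± 38.2 normalized counts in controls, most of them from control replicate 3, and 69880 ± 8010 with IL-4 (edgeR adjusted p = 5.22e-06). Arg1, the arginase of alternatively activated macrophages, went from 93.0 ± 56.8 to 60150 ± 9460 normalized counts (edgeR adjusted p = 1.18e-06). Retnla had 6.90 ± 8.65 and 12540 ± 2850 normalized counts, and Mgl2 had 13.2 ± 5.61 and 11280 ± 1650. Pdcd1lg2 was at 0 in the 3 controls and at 221.5 ± 1.44 normalized counts after IL-4 stimulation. Setting each control to a floor of 3 counts makes it at least 77.8-fold higher. The median log2 fold change of this list was 9.33 with Pdcd1lg2 at that bound, against 2.36 for Klf4. The list was not uniform, as Mrc1 and Zc3h12a rose less than Klf4. Mrc1 was at 93.4 FPKM in controls and 145.5 FPKM with IL-4 (log2 fold change 0.815, edgeR adjusted p = 0.000466). Zc3h12a rose by 0.64 on the log2 scale (edgeR adjusted p = 0.000385). These 7 genes were higher in the same libraries in which 15 of the 16 macrophage markers were lower.

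**Figure D5:**
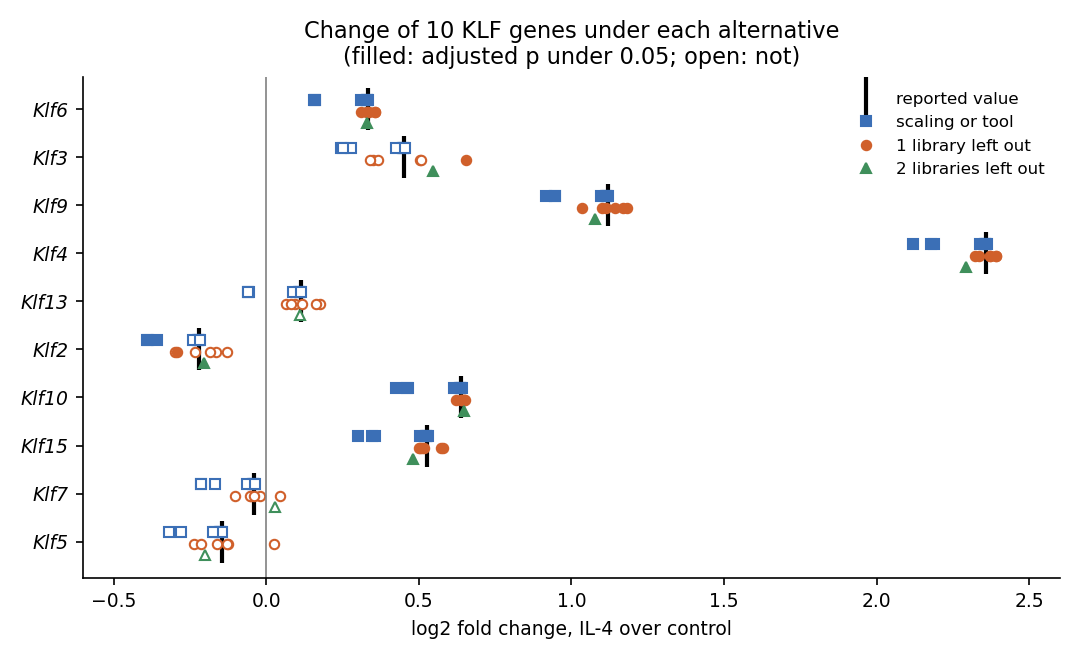
Log2 fold change of each of the 10 KLF genes as reported (black bar) and under every alternative, with squares for another scaling or tool, circles for 1 library left out and triangles for 2 libraries left out; filled symbols have an adjusted p under 0.05. Klf4, Klf9, Klf10, Klf15 and Klf6 are filled throughout, and Klf3 and Klf2 are filled in some alternatives.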

How the data were processed

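mRNA-seq of 3 control and 3 IL-4–treated cultures of adipocyte precursors was used, with groups and replicate numbers from the sample labels and days from the study's text; the small RNA libraries were not used here. The authors built poly-A libraries, cleaned the reads with SOAPnuke, used HISAT to map them to mm10, and calculated gene levels by means of Bowtie2 with RSEM. The submitters' processing notes also name StringTie. The deposited expected counts are estimated read numbers per gene, not normalized, of which 87.0% above 0 were whole (tolerance 1e-9). The deposited FPKM were scaled by the authors for transcript length and library size, so a few very abundant genes lower the FPKM of all others. Genes missing from a library's file were set to 0. A row with no gene name, at most 0.000225% of a library, was left out.

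After rounding of the expected counts, genes were kept by filterByExpr (at least 10 counts, total of at least 15), scaled by TMM and compared with edgeR 4.0.16's quasi-likelihood test under R 4.3.3, with Benjamini-Hochberg adjustment over 14009 genes. The test set each group difference against the spread between the 3 cultures of a group, with information shared across genes. Whether that spread includes differences between animals is not known. On simulated counts for this comparison, 195 of 13869 genes were changed, each by log2 1 or 2. Of genes changed by log2 1, 79.5% were recovered, and of those changed by log2 2, 99.1%, with 4.86% of calls on unchanged genes. Far more genes were called in the data, and smaller changes were not simulated, so these rates need not hold for the data. Normalized counts put each library on the mean TMM-scaled library size. A group at 0 was given a floor of 3 counts per library. All 10 members and all other KLF and SP genes are named; of each other list, up to 4 called genes of largest change (mean of 50 or more normalized counts), and up to 2 of highest FPKM. Stat6, Dlk1, Mrc1, Zc3h12a, the markers named and the sequences shown were chosen after values were seen. Some list genes that the rule names are not reported here. The members and gene lists were chosen with earlier results of these data known. Alternatives were DESeq2 1.42.0, RLE, upper-quartile and library-total scaling, omission of the filter, limma (version 3.58.1) after log2(FPKM + 1) or log2(FPKM + 0.1), and each library left out. DESeq2 without its filters, and leaving out control replicate 3 together with IL-4 replicate 6, were added after seeing the data. Python 3.11.15 with pandas 2.3.3 and matplotlib 3.10.9 was used for the rest.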

Additional observations from a re-analysis of the deposited data

How the results depend on the processing

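Over all alternatives, 5 to 6 members were higher, and Klf4, Klf9, Klf10, Klf15 and Klf6 passed the test in each of the 15. The sixth was Klf3. The count of lower members, 0 as reported, was 1 (Klf2) with library totals, with limma on log2(FPKM + 1) or log2(FPKM + 0.1), and without control replicate 3 and IL-4 replicate 6 together. It ranged from 0 to 1 when 1 library was left out, with Klf2 lower without IL-4 replicate 6. The count of members higher beyond 2-fold fell from 2 to 1 with library totals and with both limma fits, in which Klf9 was under 2-fold. Over all genes, 2663 higher and 2582 lower became 1704 and 4963 with library totals, 1735 and 4702 with limma on log2(FPKM + 1), and 1739 and 4709 with limma on log2(FPKM + 0.1). These settings moved the median log2 fold change of all genes from 0.003 to −0.17, −0.13 and −0.17. With 1 library left out, 2017 to 3199 genes were higher and 1911 to 3014 lower. Vhl, 0.17 higher as reported, had a difference of 0 in both limma fits. The naming rule picked 61 tested genes, with 915 values under the alternatives. Of these values, 839 kept their direction or stayed without a call, 49 lost the call and 25 gained one. The remaining 2, the differences of 0 of Vhl, were counted as reversed. No paired analysis was possible because the control libraries carry numbers 1 to 3 and the IL-4 libraries 4 to 6, so the groups share none.

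Markers of macrophages and mural cells changed in the same libraries, and no value here separates the RNA of such cells from that of APs. On simulated counts with 3 libraries a group, 2-fold changes were recovered less often than 4-fold ones. Levels of mRNA say nothing of KLF protein or of its binding, and 1 day of harvest gives no time course.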
